A study of Mus musculus with 29 samples.

Results

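Cortical tissue of wild-type mice was compared between animals with a photothrombotic stroke and non-stroked animals at the transcript level. The 8 wild-type samples labelled stroke or control without further treatment were taken from the labels and form 8 of the 29 samples of the series. The 4 stroked mice received the stroke over the right sensorimotor cortex, in which illumination through the skull clots the vessels below after injection of the dye Rose Bengal, and tissue was taken 21 days later. The 4 control mice are taken as not stroked, as the paper's results describe them. All 8 mice carry the WT genotype on a C57BL/6 background and received no immunosuppressant. The methods give the age of all animals as 3 months and state that both sexes were used, and they describe polyA-selected RNA from stroked cortex and from the corresponding contralesional site. The labels do not give the side of the brain, and each control has a title of its own. They do not settle whether the controls were contralesional tissue or tissue of separate non-stroked mice. The rest of the series holds Rag2-/- mice, NSG mice and immunosuppressed wild-type mice, and the responses of the first 2 are compared only at the end. All 29 samples entered 1 fit, so the other groups share in the filter, scaling and spread behind the p-values. The titles of the 4 controls and of stroked mice 1 and 2 begin with Imm2, and those of stroked mice 3 and 4 begin with TF. They are called the Imm2 mice and the TF mice. Values are given for control mice 1 to 4 against stroked mice 1 to 4. The last 2 stroked values are therefore those of the TF mice.

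An ischaemic lesion of the cortex passes from acute cell death to a subacute phase in which microglia and blood-derived phagocytes clear debris, astrocytes around the core become reactive, and fibroblasts deposit matrix in the core. Phagocytes that take up myelin have to digest and export its lipid, complement and Fc receptors tag and bind material for uptake, and interferon-stimulated genes and antigen presentation genes are shared readouts of innate and adaptive immune activity. Neurons at the border of the lesion are a source of activity-dependent transcripts, ion channels and axon growth genes. The tissue was measured in bulk, so fewer cells of a type and less RNA per cell cannot be told apart, and the same holds for more cells and more RNA per cell.

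Total gene counts were 38298061 to 40440384 in the controls, 37567368 to 39695671 in the Imm2 stroked mice and 21309103 to 29928311 in the TF stroked mice. Values are CPM, counts scaled to the library size after TMM normalization. The cortical excitatory marker Slc17a7 was at 1502, 1362, 1534 and 1434 against 1499, 1319, 922 and 868 CPM and thus present in all 8 samples. Transcripts of the Y chromosome separated the samples in another way: Ddx3y, named after its values were seen, was at 35.4, 42.6, 0 and 0 CPM in the stroked mice and at 52.7, 49.7, 49.2 and 51.7 CPM in the controls. Kdm5d, Uty and Eif2s3y also had 0 counts in stroked mice 3 and 4 and were present in the other 6 mice. This is the pattern of female mice for stroked mice 3 and 4 and of male mice for the other 6. The title prefix, Y-linked expression and stroke cannot be told apart for those 2 mice. List counts are therefore also given for the Imm2 mice alone (4 controls and 2 stroked mice), with values of single genes where these change a call. The fit behind them held all samples with Imm2 titles. Samples of Rag2-/-, NSG and immunosuppressed mice thus also entered its filter, scaling and estimate of the spread. The striatal marker Drd1 was higher in the same 2 mice, at 24, 15.8, 59.2 and 52.9 CPM in the stroked mice and 25.1, 18.6, 12.7 and 24.5 CPM in the controls, and its part in the results was not tested.

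Of 17031 genes tested, 2597 rose (15.2%) and 1982 fell (11.6%) in stroked cortex at an adjusted p below 0.05, by the quasi-likelihood test of edgeR with Benjamini-Hochberg adjustment. The median log2 fold change over all genes tested was -0.00045. The directions differed in size: 1152 genes rose by more than 2-fold (6.76%) but 92 fell by more than 2-fold (0.54%). In the Imm2 mice alone, 1142 genes rose (6.51%) and 386 fell (2.2%) of 17530 tested, with 680 (3.88%) and 27 (0.154%) past 2-fold. Of these calls, 1101 higher and 316 lower genes were called in both comparisons. Genes with groups that did not overlap numbered 2784 above (16.3%) and 2284 below the controls (13.4%). The balance between the directions depended on the scaling: 56.7% of the calls were higher under TMM, 82.7% with total counts as library sizes, where the median gene moved by 0.139 on the log2 scale, and 74.7% in the Imm2 mice alone. Of single mice left out, stroked mouse 4 moved the counts to 1700 higher and 990 lower, stroked mouse 3 to 1119 lower and control mouse 1 to 1215 lower. For each list below, 15.2% higher and 11.6% lower are the shares over all genes in the 8 mice, and 6.51% and 2.2% those in the Imm2 mice. With total counts as library sizes these shares were 23.7% higher and 4.96% lower, and list counts given under that scaling stand beside them. Small changes downward are therefore reported relative to the median gene.

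**Figure D1:**
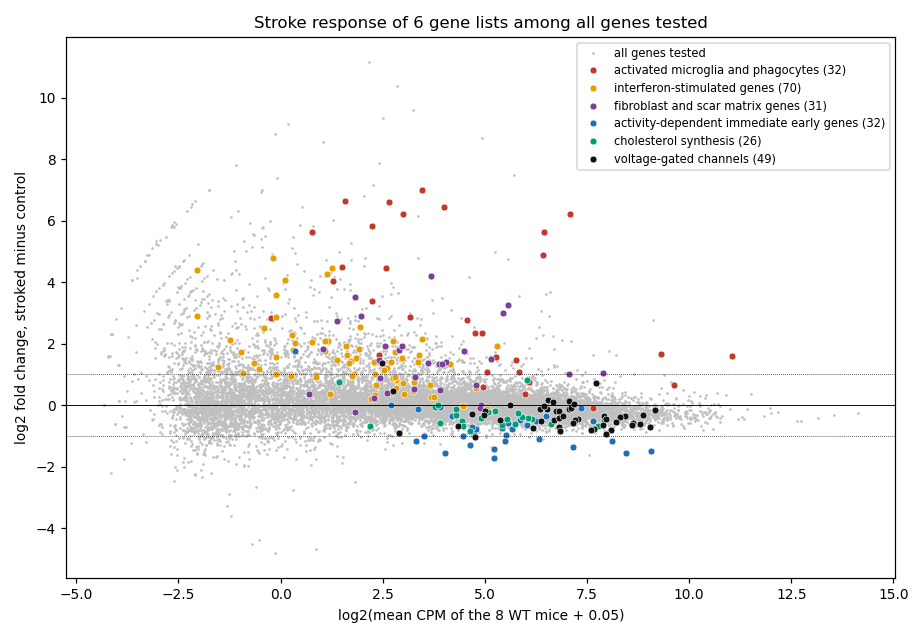
Log2 fold change (stroked minus control, wild type, vertical axis) against the mean level over the 8 mice in log2(CPM + 0.05) (horizontal axis), with a grey point for each gene tested, coloured points for the members of 6 gene lists and dotted lines at 2-fold. The points spread further above than below the lines (1152 genes called higher and 92 lower past 2-fold), with activated microglia genes among the highest, and immediate early genes, channels and cholesterol synthesis genes mostly below 0.

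Among the 20 genes with the largest rises past 2-fold, without overlap between the groups and with a mean of at least 1 CPM in the stroked mice, Mmp3, the protease stromelysin-1, had 0 counts in every control and 0.934, 5.86, 10.3 and 18.1 CPM in the stroked mice, at least 399-fold higher against a floor of 3 counts over the 4 controls. Cd300lb and Apoc4 also had 0 counts in all controls and were at least 98.5-fold higher and at least 79.6-fold higher against the same floor. Cd5l, a macrophage-secreted scavenger protein, had 1 count in the controls and 3.13, 8.86, 17.1 and 28 CPM in the stroked mice, a ratio of 1949 with an exact counting interval of 349 to 77039.9. These bounds and 95% intervals cover counting error only. Lcn2, Mmp12, Atp6v0d2, Mmp13, C3, Gm44805, Tgm1, Clec7a, Apoc2, Ccl8, Gm49339, Lilr4b, Lilrb4a, Cd300lf, Lgals3 and Lyz2 completed this list, and Lilr4b and Lilrb4a are near-identical neighbours between which reads could be split. The gene model Gm49339 overlaps both on the same strand, and Gm44805 likewise overlaps Apoc2 and Apoc4. The 20 entries are therefore not 20 separate loci. The 20 largest falls were smaller, from -2.77 for Glra1 to -1.17 for Gm45493 on the log2 scale, and 8 of them were unnamed gene models. Glra1, a glycine receptor subunit, was at 0.74, 6.39, 0.504 and 0.632 against 0.278, 0.389, 0.391 and 0.153 CPM, highest in control mouse 2, and the call was lost without that mouse and in the Imm2 mice alone (-2.62 ± 1.04, adjusted p = 0.14). Colq, which encodes the collagen tail of acetylcholinesterase, was at 2.96, 3.1, 2.68 and 2.25 against 0.884, 0.778, 0.869 and 0.764 CPM (log2 fold change -1.74 ± 0.28, adjusted p = 1.1e-04).

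**Figure D2:**
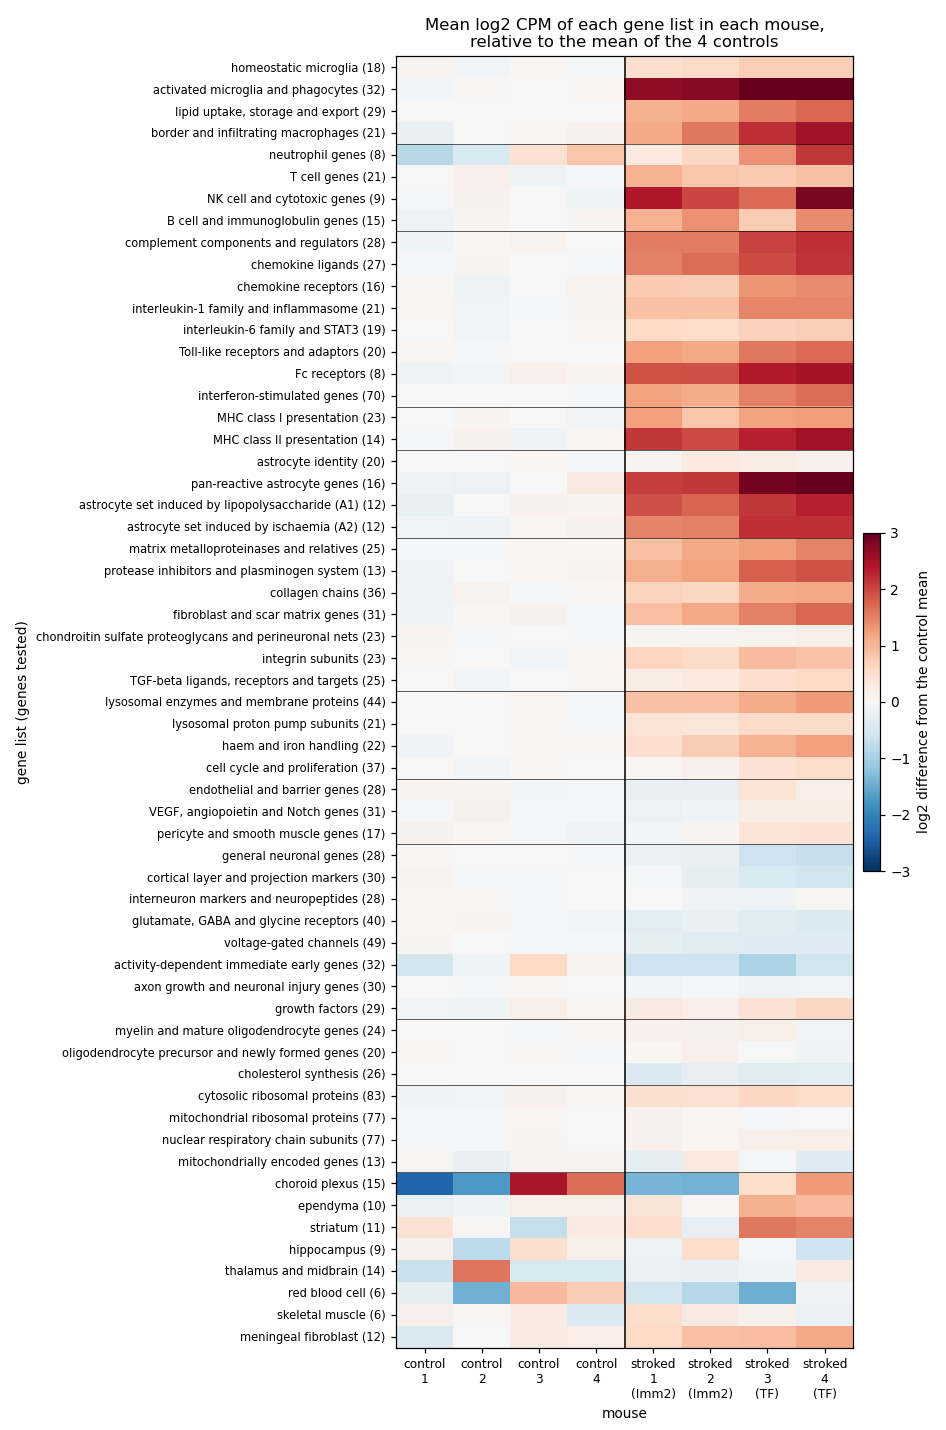
Colour gives the mean log2 CPM of the tested genes of each list (rows, number of genes in parentheses) in each of the 8 mice (columns), as a difference from the mean of the 4 controls, with the scale ending at 3 in either direction. The lists of activated microglia, complement, MHC class II and pan-reactive astrocyte genes are above 0 in all 4 stroked mice and cholesterol synthesis is below 0 in all 4, while the lists of choroid plexus, striatum and thalamus, which stand for neighbouring tissue, vary between mice of 1 group.

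Promoters of a few of the genes that rose are shown here because members of their families rose and share short sequence words. Motif searches covered both strands of 300 bases (250 before to 50 after the start) around the starts of 27025 RefSeq genes (GRCm38.p6), and the printed stretches are the 250 bases before the start, 5′ to 3′ on the strand of the gene, with matches in capitals (in capitals the reverse complement where the match lies on the opposite strand). The word of GAAA, any 2 bases and GAAA again, the core of the interferon-stimulated response element, was found in 29 of 51 members of the interferon-stimulated list with a promoter entry (56.9%) and in 3.99% of all genes. Of the members with the word 24 of 29 rose in stroked cortex, and of those without it 12 of 22 rose.
Ifit3, chr19:34583279-34583528 (plus strand): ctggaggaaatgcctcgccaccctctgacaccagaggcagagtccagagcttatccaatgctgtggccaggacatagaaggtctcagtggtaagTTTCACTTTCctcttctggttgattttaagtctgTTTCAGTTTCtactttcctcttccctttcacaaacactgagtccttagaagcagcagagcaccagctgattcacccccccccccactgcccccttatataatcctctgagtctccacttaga
Isg15, chr4:156200819-156201068 (minus strand): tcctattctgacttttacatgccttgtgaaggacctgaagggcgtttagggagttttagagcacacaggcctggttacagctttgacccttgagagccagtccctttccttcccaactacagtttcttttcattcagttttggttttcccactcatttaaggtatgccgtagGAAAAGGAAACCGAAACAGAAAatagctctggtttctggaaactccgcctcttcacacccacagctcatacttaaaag
Bst2, chr8:71537473-71537722 (minus strand): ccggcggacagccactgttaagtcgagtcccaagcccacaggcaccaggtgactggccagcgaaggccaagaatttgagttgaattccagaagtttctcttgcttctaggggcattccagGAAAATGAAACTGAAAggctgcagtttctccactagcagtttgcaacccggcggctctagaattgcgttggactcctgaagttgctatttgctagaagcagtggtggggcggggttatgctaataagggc
Cxcl10, chr5:92348890-92349139 (minus strand): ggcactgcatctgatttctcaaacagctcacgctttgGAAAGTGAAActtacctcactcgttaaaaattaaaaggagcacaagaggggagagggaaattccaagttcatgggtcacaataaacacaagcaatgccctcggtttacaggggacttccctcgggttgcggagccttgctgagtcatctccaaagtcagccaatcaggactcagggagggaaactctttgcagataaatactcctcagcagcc
The 3 matches of Isg15 and the 2 of Bst2 overlap each other. The second word was TGAGTCA, the site bound by AP-1 dimers, present in 4 of 17 genes of the metalloproteinase list (23.5%) and in 5.95% of all genes. The 3 proteases with the largest rises of that list carried it within 46 bases of their start. Mmp12 has 2 promoter entries, of which the first with a match is shown.
Mmp3, chr9:7445572-7445821 (plus strand): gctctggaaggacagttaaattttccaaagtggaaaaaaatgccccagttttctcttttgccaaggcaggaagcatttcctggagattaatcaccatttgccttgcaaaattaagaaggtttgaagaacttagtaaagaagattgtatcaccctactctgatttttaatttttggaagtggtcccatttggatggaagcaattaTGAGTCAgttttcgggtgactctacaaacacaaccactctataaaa
Mmp12, chr9:7347124-7347373 (plus strand): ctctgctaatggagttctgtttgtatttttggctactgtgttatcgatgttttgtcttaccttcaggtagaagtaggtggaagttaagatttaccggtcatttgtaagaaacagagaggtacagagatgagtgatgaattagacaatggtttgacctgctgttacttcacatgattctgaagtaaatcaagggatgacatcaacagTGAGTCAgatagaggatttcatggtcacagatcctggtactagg
Mmp13, chr9:7272264-7272513 (plus strand): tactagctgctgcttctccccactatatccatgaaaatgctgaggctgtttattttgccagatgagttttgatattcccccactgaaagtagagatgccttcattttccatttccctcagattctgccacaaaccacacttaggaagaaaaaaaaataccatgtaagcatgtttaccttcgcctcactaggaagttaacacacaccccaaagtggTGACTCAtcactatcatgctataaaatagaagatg
The third word, CTGATTGG, is the Y box of MHC class II promoters, which was found in 4 of 10 genes of the class II list (40.0%) and in 4.70% of all genes. Members with and without it rose, 3 of 3 tested and 6 of 6 tested.
H2-Aa, chr17:34287824-34288073 (minus strand): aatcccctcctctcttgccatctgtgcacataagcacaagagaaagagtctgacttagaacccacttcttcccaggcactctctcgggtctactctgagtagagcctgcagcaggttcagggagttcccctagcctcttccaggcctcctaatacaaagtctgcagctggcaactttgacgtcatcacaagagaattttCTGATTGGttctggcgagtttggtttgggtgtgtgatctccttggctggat
H2-Eb1, chr17:34305617-34305866 (plus strand): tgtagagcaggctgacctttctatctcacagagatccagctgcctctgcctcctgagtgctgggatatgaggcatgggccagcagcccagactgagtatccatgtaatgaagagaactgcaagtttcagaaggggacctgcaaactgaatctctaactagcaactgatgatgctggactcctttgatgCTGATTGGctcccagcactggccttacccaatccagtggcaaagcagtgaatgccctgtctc
A match is a description of the sequence and was not tested as a binding site.

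Genes of microglia and phagocytes mostly rose. Of the homeostatic microglia list, 13 of 18 tested genes rose and 1 fell (median log2 fold change 0.78). Of the list, 9 rose and 0 fell in the Imm2 mice alone. Tmem119, a membrane protein of resident microglia, was at 13.8, 11.5, 15.1 and 15.6 against 27.5, 27.6, 33 and 31.2 CPM (log2 fold change 1.09 ± 0.11, adjusted p = 1.2e-06). All stroked mice lay above all controls. Csf1r, the receptor that microglia need for survival, was at 82.8, 75.6, 87.7 and 80.8 against 146, 150.2, 197 and 184 CPM (log2 fold change 1.05 ± 0.12, adjusted p = 6.8e-06). Cx3cr1, the fractalkine receptor, also rose (0.73, adjusted p = 0.0012), whereas P2ry12, the purinergic receptor of ramified microglia, was at 38.5, 27, 33.5 and 29 against 30.6, 43.5, 34 and 28.1 CPM and its groups overlapped (log2 fold change 0.09 ± 0.13, adjusted p = 0.64). The member that fell was Mef2c (-0.57, adjusted p = 0.039), a transcription factor that cortical neurons also express.

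Of the activated microglia and phagocyte list, 31 of 32 tested genes rose and 0 fell, 27 of them by more than 2-fold, with a median of 2.8. Of the list, 31 rose and 0 fell in the Imm2 mice alone. Trem2, the lipid-sensing receptor of phagocytic microglia, was at 9.08, 7.56, 9.44 and 8.85 against 37.7, 37.1, 46.5 and 58.1 CPM (log2 fold change 2.36 ± 0.30, adjusted p = 1.6e-05). Clec7a, the beta-glucan receptor dectin-1, rose from 0.171, 0.136, 0.212 and 0.137 CPM in the controls to 16.9, 14.3, 25.2 and 29.9 CPM in the stroked mice (128-fold, log2 fold change 7.0 ± 0.95, adjusted p = 2.9e-05). Neither gene overlapped between the groups. Gpnmb, a glycoprotein of lipid-laden phagocytes, was at 3.45, 2.31, 4.69 and 3.24 against 82.5, 105, 188 and 305 CPM (log2 fold change 5.63 ± 0.87, adjusted p = 7.6e-05). Spp1, which encodes osteopontin, was at 3.64, 7.78, 5.52 and 5.63 against 78, 93.1, 247 and 244 CPM (log2 fold change 4.87 ± 0.70, adjusted p = 4.3e-05). For both, the TF mice held the highest values, and the Imm2 mice alone gave 4.78 (adjusted p = 6.6e-06) and 3.92 (adjusted p = 1.9e-05). Lgals3, a galectin of phagocytes, and Itgax, the integrin chain CD11c, rose by 86.8-fold and 73.9-fold (adjusted p = 6.5e-05 and 2.1e-05). Lyz2, lysozyme M of myeloid cells, was at 2.73, 3.21, 4.16 and 4.12 against 120.2, 146, 325 and 474 CPM, and Cd68, a lysosomal glycoprotein of macrophages, at 11.1, 9.33, 10.6 and 8.93 against 46.4, 50.8, 46.2 and 60.3 CPM. All stroked mice were above all controls for both (adjusted p = 3.4e-05 and 7.0e-05).

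Genes that take up, store and export lipid rose in 18 of 29 cases tested and fell in 2 (median 0.69). Of the list, 13 rose and 2 fell in the Imm2 mice alone. Apoe, the main lipid carrier of brain, was among the most abundant of them, at 1016, 948, 1219 and 1014 against 3170.4, 2958, 3035 and 3656 CPM (log2 fold change 1.61 ± 0.24, adjusted p = 5.5e-05). Abca1, the pump that loads cholesterol onto apolipoproteins, was at 48.1, 44, 47.3 and 42.4 against 123, 120.4, 192 and 209 CPM (log2 fold change 1.83 ± 0.30, adjusted p = 1.3e-04). Plin2, the coat protein of lipid droplets, was at 2.73, 3.97, 3.08 and 3.57 against 7.85, 11, 20.1 and 26.4 CPM (log2 fold change 2.29 ± 0.44, adjusted p = 5.3e-04). The stroked groups were above the controls for these 3 genes. For Plin2 and Abca1 both TF mice were above both Imm2 stroked mice, but the differences did not pass the test (adjusted p = 0.11 and 0.24). Apoc2, the cofactor of lipoprotein lipase, sits beside Apoe and Apoc4 in the genome and had 1 count in the controls against 0.555, 0.778, 1.43 and 2.66 CPM in the stroked mice, a ratio of 189 with an exact counting interval of 33.5 to 7506. Msr1, a scavenger receptor named after its values were seen, was at 0.0569, 0.0544, 0.053 and 0.0825 against 1.69, 2.11, 4.17 and 4.92 CPM (log2 fold change 5.61 ± 0.74, adjusted p = 2.1e-05). Nceh1, a neutral cholesterol ester hydrolase, fell (-0.21, adjusted p = 0.028).

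Of the genes of border and infiltrating macrophages, 15 of 21 tested rose and 0 fell (median 1.71). Of the list, 9 rose and 0 fell in the Imm2 mice alone. Mrc1, the mannose receptor of perivascular macrophages, was at 1.91, 4.43, 3.02 and 2.97 against 5.68, 8.56, 11.2 and 10.9 CPM (log2 fold change 1.55 ± 0.27, adjusted p = 2.4e-04). Ccr2, the chemokine receptor of inflammatory monocytes, was at 0.285, 0.163, 0.212 and 0.192 against 0.454, 0.75, 2.26 and 2.35 CPM (log2 fold change 2.73 ± 0.57, adjusted p = 0.0012). For Ccr2 the rise did not pass the test in the Imm2 mice alone (1.49 ± 0.59, adjusted p = 0.14), and the TF mice were higher than the Imm2 stroked mice by 1.92 (adjusted p = 0.043). Cd163, the haemoglobin scavenger receptor, was at 0.626, 0.925, 1.06 and 0.907 against 1.19, 1.69, 2.52 and 2.69 CPM (log2 fold change 1.19 ± 0.26, adjusted p = 0.0018), with 0.71 ± 0.29, adjusted p = 0.14 in the Imm2 mice alone.

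Transcripts of several lymphocyte genes were scarce but present. Of the T cell genes, 12 of 21 tested rose and 0 fell (median 1.09), and 5 of the 26 were not tested. Of the list, 4 rose and 0 fell in the Imm2 mice alone, and 7 rose without control mouse 1 or without control mouse 3. Cd3e, a chain of the T cell receptor complex, was at 0.0569, 0.0272, 0.0265 and 0.11 against 0.707, 0.139, 0.478 and 0.336 CPM (log2 fold change 2.84 ± 0.62, adjusted p = 0.0021). The stroked mice were all above the controls. Cd8a, the coreceptor of cytotoxic T cells, was at 0.0285, 0.0272, 0.0265 and 0.055 against 0.808, 0.445, 0.0435 and 0.275 CPM (log2 fold change 3.45 ± 0.79, adjusted p = 0.0036). Stroked mouse 3 lay within the control range for Cd8a. Cd4, which microglia and neurons also transcribe, was at 9.62, 7.59, 3.39 and 8.11 against 13.3, 6.33, 20.6 and 21 CPM and did not pass the test (log2 fold change 1.09 ± 0.71, adjusted p = 0.26). Of the cytotoxic genes, 8 of 9 tested rose and 0 fell, and 7 of the 16 were not tested. The median was 3.74, or 3.37 with the 2 genes absent from the controls at their bounds. The list summed to 1.14 to 1.38 CPM in the controls. Genes this scarce can pass the filter on low counts only through groups where they are higher. The share that rose is therefore not comparable with that over all genes. The same holds for scarce members of the T cell list and of other lists with untested genes. Of the cytotoxic list, 6 rose and 0 fell in the Imm2 mice alone. Nkg7, a granule protein of killer cells, had 0 counts in every control and 0.151, 0.278, 0.0869 and 0.397 CPM in the stroked mice, at least 11-fold higher against the floor. Ccl5, a chemokine of effector lymphocytes, was at 0.0569, 0.109, 0.106 and 0.0275 against 2.37, 0.945, 0.826 and 1.34 CPM (log2 fold change 4.14 ± 0.65, adjusted p = 9.1e-05).

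Of the B cell and immunoglobulin genes, 7 of 15 tested rose and 1, Pax5 (-2.66, adjusted p = 0.013), fell, the call being lost without control mouse 2, which held the highest value. Of the 24 genes 9 were not tested. The limit given for the cytotoxic genes applies to the scarce members here. Of the list, 6 rose and 0 fell in the Imm2 mice alone. Igkc, the constant region of the kappa light chain made by plasma cells, was at 0.142, 0.0544, 0.133 and 0.22 against 0.959, 4.39, 1.04 and 1.25 CPM (log2 fold change 3.78 ± 0.89, adjusted p = 0.0043), with the highest value in stroked mouse 2. The immunoglobulin gene Ighm was more abundant and did not rise, at 46.7, 45.5, 46.3 and 41.3 against 55.6, 41.8, 27 and 25.4 CPM (log2 fold change -0.26 ± 0.26, adjusted p = 0.48). The B cell antigen receptor gene Cd79b was at 0.0285, 0.0544, 0.265 and 0.055 against 0.252, 0.25, 0.261 and 0.367 CPM, with overlapping groups (log2 fold change 1.43 ± 0.56, adjusted p = 0.059). The defining surface gene Ms4a1, named after its values were seen, held 2 counts over all controls and 5 counts over all stroked mice, and was too low to be tested. Of the neutrophil genes, 4 of 8 tested rose, and 7 of the 15 were not tested, so the same limit applies to this share as to that of the cytotoxic genes. Of the list, 1 rose and 0 fell in the Imm2 mice alone. S100a8 and S100a9, the calprotectin subunits, were at 0.0569, 0.109, 0.239 and 0.385 against 0.227, 0.445, 1.09 and 1.99 CPM and 0, 0.19, 0.345 and 0.33 against 0.227, 0.417, 1.48 and 2.54 CPM (adjusted p = 0.017 and 0.015). Stroked mouse 1 lay within the control range for both, the Imm2 mice alone gave adjusted p = 0.50 and 0.70, and the neutrophil surface gene Ly6g, also named after its values were seen, held 4 counts over the stroked mice.

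Complement genes rose together: 20 of 28 tested rose and 0 fell (median 2.07). Of the list, 18 rose and 0 fell in the Imm2 mice alone. C1qa, a chain of the recognition subunit of the classical pathway, was at 44.4, 40.2, 47.9 and 42.9 against 196, 196, 174 and 203 CPM (log2 fold change 2.13 ± 0.28, adjusted p = 2.0e-05). C4b, the next component of that pathway, was at 13.7, 14.3, 12 and 15.9 against 154, 101, 225 and 243 CPM (log2 fold change 3.69 ± 0.46, adjusted p = 1.5e-05). C3, the central component, was at 0.114, 0.218, 0.689 and 1.29 against 59.3, 46.8, 132 and 178 CPM (178-fold, log2 fold change 7.48 ± 1.1, adjusted p = 5.5e-05). In each of the 3 genes the lowest stroked mouse was above the highest control, and the Imm2 mice alone gave 2.16, 3.19 and 6.51 on the log2 scale. Receptors of the cleaved fragments rose as well, with C3ar1 at 2.08, 1.61, 2.28 and 1.84 against 11.1, 12, 17.8 and 22.2 CPM (log2 fold change 3.01 ± 0.46, adjusted p = 7.0e-05) and C5ar1 at 0.541, 0.571, 1.03 and 0.44 against 2.1, 2.97, 3.78 and 4.43 CPM (log2 fold change 2.34 ± 0.41, adjusted p = 2.2e-04).

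Of the chemokine ligands, 17 of 27 tested rose and 1 fell, with a median of 2.99, or 2.89 with the 1 gene absent from the controls at its bound. Of the list, 12 rose and 0 fell in the Imm2 mice alone. Ccl2, which attracts Ccr2-bearing monocytes, was at 0.0285, 0.0272, 0 and 0.0825 against 0.48, 0.139, 0.782 and 1.53 CPM (log2 fold change 4.25 ± 1.01, adjusted p = 0.0036). Ccl3, a microglial chemokine, was at 0.142, 0.408, 0.133 and 0.055 against 1.77, 1.64, 2.13 and 2.63 CPM (log2 fold change 3.44 ± 0.49, adjusted p = 3.9e-05). Cxcl10, the interferon-induced ligand whose promoter is given above, was at 0.114, 0.0816, 0.106 and 0.137 against 2.1, 1.0, 2.52 and 2.11 CPM (log2 fold change 4.08 ± 0.70, adjusted p = 1.8e-04). No stroked mouse overlapped the controls for these ligands, but Ccl2 did not pass the test in the Imm2 mice alone (3.07 ± 1.1, adjusted p = 0.097). Cxcl13, a B cell attractant, had 2 counts in the controls and 0.101, 0.139, 0.0435 and 0.244 CPM in the stroked mice, a ratio of 10.002 with an exact counting interval of 2.39 to 88.9, and did not pass the test (adjusted p = 0.051). The ligand that fell was the neuronal fractalkine Cx3cl1, at 992, 937, 1043 and 985 against 873, 711, 674 and 731 CPM (log2 fold change -0.40 ± 0.10, adjusted p = 0.0034), and it did not pass the test in the Imm2 mice alone (adjusted p = 0.092). Of the chemokine receptors, 9 of 16 tested rose and 0 fell. Of the list, 2 rose and 0 fell in the Imm2 mice alone. Cxcr4, the receptor of Cxcl12, was at 1.25, 0.789, 1.11 and 1.26 against 3.64, 3.53, 5.48 and 8.64 CPM (log2 fold change 2.26 ± 0.48, adjusted p = 0.0013).

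Of the interleukin-1 family and inflammasome genes, 15 of 21 tested rose and 1 fell, Nlrc4 (-1.31, adjusted p = 0.029). Of the list, 8 rose and 0 fell in the Imm2 mice alone. Il1a and Il1b, the agonist cytokines, were at 0.484, 0.598, 0.345 and 0.605 against 1.36, 1.19, 1.43 and 2.17 CPM (adjusted p = 0.0021) and 0.171, 0.109, 0.186 and 0.165 against 0.555, 0.361, 0.435 and 1.01 CPM (adjusted p = 0.0054). Both stayed under 3 CPM in every mouse, without overlap between the groups. Casp1, the protease that matures interleukin-1 beta, was at 1.62, 1.5, 1.09 and 1.37 against 2.47, 2.58, 3.52 and 4.28 CPM (log2 fold change 1.2 ± 0.28, adjusted p = 0.0030). In the Imm2 mice alone Il1a passed the test (adjusted p = 0.030), and Il1b and Casp1 did not (adjusted p = 0.13 and 0.081). Nlrp3, an inflammasome sensor, was at 0.911, 1.01, 0.504 and 1.02 against 0.909, 0.945, 2.48 and 1.8 CPM and overlapped between the groups (log2 fold change 0.81 ± 0.38, adjusted p = 0.12). Of the interleukin-6 family and STAT3 genes, 9 of 19 tested rose and 2 fell (Socs1 at -0.86 and Jak1 at -0.25). Of the list, 7 rose and 0 fell in the Imm2 mice alone. Osmr, the oncostatin M receptor, was at 4.04, 3.94, 3.23 and 4.65 against 11.6, 11.8, 17 and 18.6 CPM (log2 fold change 1.89 ± 0.29, adjusted p = 6.8e-05), and Socs3, the feedback inhibitor of STAT3, was at 3.1, 3.07, 4.43 and 3.33 against 10.1, 8.03, 8.39 and 8.64 CPM (log2 fold change 1.33 ± 0.23, adjusted p = 1.8e-04). Stat3 itself rose by 0.62 (adjusted p = 0.0014).

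Pattern recognition and antibody receptors followed the same direction. Of the Toll-like receptors and adaptors, 16 of 20 tested rose and 0 fell (median 1.42). Of the list, 14 rose and 0 fell in the Imm2 mice alone. Tlr2, the lipoprotein sensor, was at 0.911, 1.17, 1.06 and 0.687 against 4.8, 3.78, 8.3 and 8.71 CPM (log2 fold change 2.73 ± 0.39, adjusted p = 4.5e-05). Tlr7, the endosomal sensor of single-stranded RNA, was at 2.82, 2.07, 2.44 and 4.21 against 8.66, 9.06, 12.6 and 13.3 CPM (log2 fold change 1.92 ± 0.29, adjusted p = 7.2e-05). Of the Fc receptor genes, 8 of 8 tested rose, in all mice and in the Imm2 mice alone (median 1.84). Fcgr4, an activating receptor for IgG, was at 0, 0.0272, 0.0795 and 0.055 against 1.84, 1.89, 2.96 and 3.79 CPM (log2 fold change 5.86 ± 0.84, adjusted p = 3.9e-05), and Fcer1g, the signalling chain that activating receptors share, was at 6.72, 5.74, 6.52 and 6.35 against 25, 24.6, 20.2 and 26.3 CPM (log2 fold change 1.92 ± 0.29, adjusted p = 6.0e-05). The groups did not overlap for any of these 4 receptors.

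Interferon-stimulated genes rose in 52 of 70 cases tested, 42 of them by more than 2-fold, and 1 fell (median 1.38). Of the list, 41 rose and 0 fell in the Imm2 mice alone. Ifit3, an effector that binds viral RNA together with its relatives, was at 3.73, 4.38, 3.37 and 4.43 against 11.2, 10.8, 11.7 and 12.2 CPM (log2 fold change 1.53 ± 0.26, adjusted p = 1.7e-04), and reads could be shared with its near-copy Ifit3b. Oasl2, of the oligoadenylate synthetase family, was at 3.47, 3.24, 2.55 and 3.52 against 10.7, 9.72, 9.87 and 12.2 CPM (log2 fold change 1.74 ± 0.42, adjusted p = 0.0043). Bst2, which tethers budding virus, was at 0.911, 1.14, 1.48 and 0.88 against 4.77, 3.36, 8.3 and 9.59 CPM (log2 fold change 2.55 ± 0.44, adjusted p = 1.8e-04). These 3 were without overlap, at 1.48, 1.68 and 1.88 in the Imm2 mice alone (adjusted p = 5.0e-05, 0.0033 and 0.0011). Isg15, the ubiquitin-like modifier, was at 0.626, 0.272, 0.53 and 0.66 against 0.934, 0.861, 2.48 and 3.12 CPM (log2 fold change 1.8 ± 0.54, adjusted p = 0.016). Its rise did not pass the test in the Imm2 mice alone (0.79 ± 0.37, adjusted p = 0.21) or without stroked mouse 4. Irf7, which amplifies the response, rose by 1.36 (adjusted p = 0.012). The member that fell was Herc6 (-0.62, adjusted p = 0.032).

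Antigen presentation genes rose in both classes. Of the class I list, 18 of 23 tested rose and 0 fell (median 0.88). Of the list, 13 rose and 0 fell in the Imm2 mice alone. H2-K1, a classical class I heavy chain that can share reads with H2-D1, was at 16.3, 17.7, 18.3 and 18.2 against 81.9, 60.1, 70.8 and 72.7 CPM (log2 fold change 2.02 ± 0.27, adjusted p = 2.6e-05), and B2m, the shared light chain, was at 94.3, 86.9, 101 and 96.6 against 257, 239.5, 165 and 174 CPM (log2 fold change 1.14 ± 0.22, adjusted p = 5.9e-04). For B2m both Imm2 stroked mice were above both TF mice. Psmb8, the immunoproteasome subunit, and Tap1, the peptide transporter, rose by 5.12-fold and 3.07-fold (adjusted p = 4.5e-05 and 4.8e-04). Of the class II list, 13 of 14 tested rose and 0 fell (median 2.26). Of the list, 13 rose and 0 fell in the Imm2 mice alone. H2-Aa, the alpha chain of I-A, was at 0.569, 0.871, 0.636 and 0.77 against 17.2, 12.9, 22.5 and 25.8 CPM (27.4-fold, log2 fold change 4.77 ± 0.72, adjusted p = 6.2e-05). H2-Ab1, its beta chain, was at 1.03, 0.952, 1.11 and 1.21 against 15.3, 9.14, 13.3 and 16.4 CPM (log2 fold change 3.65 ± 0.62, adjusted p = 1.7e-04). Cd86, a costimulatory ligand of T cells, was at 1.62, 1.44, 1.48 and 1.57 against 4.9, 3.89, 5.65 and 4.92 CPM (log2 fold change 1.66 ± 0.26, adjusted p = 9.2e-05). The stroked mice were above every control for all 3 genes.

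**Figure D3:**
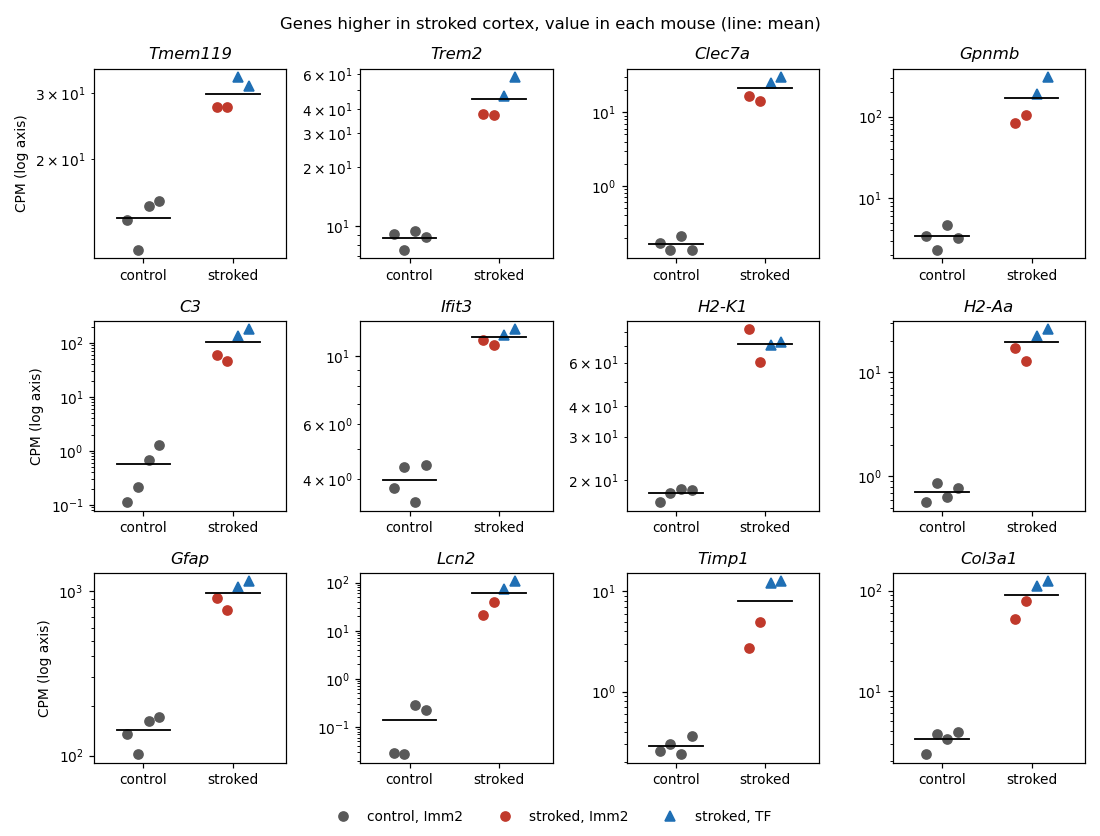
CPM on log axes (vertical) of 12 genes that rose in stroked cortex, 1 panel for each gene with its own scale, with each mouse as a point (circles for Imm2 mice, triangles for TF mice) and the mean of each group as a line. In every panel all stroked mice lie above all controls, and in every panel except that of H2-K1 both TF mice lie above both Imm2 stroked mice.

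Astrocyte genes separated into a reactive set with large changes and an identity set with small ones. Of the identity list, 10 of 20 tested rose and 2 fell (median 0.24). Of the list, 5 rose and 0 fell in the Imm2 mice alone. Slc1a2, the main glutamate transporter, was at 4438, 3913, 4277 and 4029 against 3486, 4981, 4253 and 3038 CPM, and the groups overlapped (log2 fold change -0.08 ± 0.14, adjusted p = 0.71). Aqp4, the water channel of astrocyte endfeet, was at 126, 118, 127 and 137 against 186, 202, 246 and 213 CPM (log2 fold change 0.74 ± 0.20, adjusted p = 0.0090), with 0.62 ± 0.25, adjusted p = 0.15 in the Imm2 mice alone. Sox9, a transcription factor of astrocyte nuclei, was at 51.7, 38.8, 52.7 and 45.1 against 32.7, 40.2, 24.7 and 30.5 CPM (log2 fold change -0.55 ± 0.12, adjusted p = 0.0022) and fell, with adjusted p = 0.094 in the Imm2 mice alone. Of the pan-reactive list, 13 of 16 tested rose and 0 fell (median 2.35). Of the list, 12 rose and 0 fell in the Imm2 mice alone. Gfap, the intermediate filament used to stain reactive astrocytes, was at 134, 102, 162 and 172 against 903, 765, 1066 and 1144 CPM (6.8-fold, log2 fold change 2.77 ± 0.33, adjusted p = 1.1e-05). Vim, a second intermediate filament, was at 20.3, 19.8, 23.7 and 25.4 against 125, 117, 199 and 225 CPM (log2 fold change 2.9 ± 0.41, adjusted p = 3.9e-05). Lcn2, the secreted siderophore-binding lipocalin, was at 0.0285, 0.0272, 0.292 and 0.22 against 21.1, 40.4, 74.2 and 106 CPM (log2 fold change 8.68 ± 1.09, adjusted p = 1.6e-05), the largest change of the list. Serpina3n, a protease inhibitor of reactive astrocytes, was at 18.1, 16.9, 19.4 and 16.8 against 94.3, 108, 181 and 206 CPM (log2 fold change 3.05 ± 0.43, adjusted p = 3.8e-05). These 4 genes held no overlap between the groups, and in the Imm2 mice alone the values were 2.55, 2.45, 7.71 and 2.51.

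The sets that others defined after lipopolysaccharide (A1) and after ischaemia (A2) both rose, with 10 of 12 and 10 of 12 genes tested and 0 falling in either (medians 1.74 and 1.83). In the Imm2 mice alone 9 and 6 rose. Ggta1, of the A1 set, was at 3.56, 4.14, 4.53 and 3.46 against 12.5, 11.8, 18.2 and 16.3 CPM (log2 fold change 1.9 ± 0.31, adjusted p = 1.1e-04), whereas Amigo2 of that set was at 6.89, 10.5, 7.5 and 7.78 against 12.4, 9.84, 10.6 and 17.8 CPM with overlapping groups (log2 fold change 0.63 ± 0.26, adjusted p = 0.074). Tgm1, a transglutaminase of the A2 set, was at 0.0569, 0.0544, 0.0795 and 0.055 against 4.92, 4.25, 13.7 and 14.9 CPM (log2 fold change 7.16 ± 1.06, adjusted p = 5.5e-05), and Emp1, a membrane protein of that set, at 1.37, 1.36, 1.7 and 1.68 against 5.23, 9.81, 13.3 and 15.8 CPM (log2 fold change 2.85 ± 0.47, adjusted p = 1.3e-04).

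Matrix-degrading enzymes changed unevenly. Of the metalloproteinase list, 9 of 25 tested rose and 2 fell, Mmp15 (-0.40) and Mmp17 (-0.31), with a median of 0.40. Of the list, 6 rose and 0 fell in the Imm2 mice alone. Mmp12, the macrophage elastase, had 3 counts in the controls and 7.37, 22.9, 23.1 and 21.9 CPM in the stroked mice, a ratio of 876 with an exact counting interval of 299 to 4252. Mmp13, a collagenase, was at 0.0285, 0.0272, 0.053 and 0.055 against 10.6, 19.8, 5.91 and 5.59 CPM (log2 fold change 7.87 ± 1.26, adjusted p = 1.1e-04), and here the Imm2 stroked mice were above the TF mice. Mmp2, the gelatinase of fibroblasts, was at 2.31, 2.31, 2.49 and 2.64 against 6.44, 9.14, 9.61 and 12.4 CPM (log2 fold change 1.94 ± 0.41, adjusted p = 0.0014). Of the protease inhibitors and plasminogen genes, 11 of 13 tested rose and 0 fell. Of the list, 4 rose and 0 fell in the Imm2 mice alone. Timp1, the inhibitor of these proteases, was at 0.256, 0.299, 0.239 and 0.357 against 2.75, 4.92, 12 and 12.6 CPM (log2 fold change 4.78 ± 0.69, adjusted p = 4.5e-05).

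Collagen chains rose in 17 of 36 cases tested and 0 fell (median 0.50). Of the list, 10 rose and 0 fell in the Imm2 mice alone. Col1a1, a chain of the main fibrillar collagen, was at 7.46, 10.4, 7.48 and 10.3 against 66.8, 96, 117 and 142 CPM (11.8-fold, log2 fold change 3.56 ± 0.68, adjusted p = 5.0e-04). Col3a1, the chain of type III fibrils, was at 2.36, 3.78, 3.34 and 3.88 against 52.3, 78.5, 110.1 and 123 CPM (27.2-fold, log2 fold change 4.76 ± 0.80, adjusted p = 1.5e-04). Col4a1, of the basement membrane, changed less, at 56.5, 61.1, 48.3 and 64.2 against 70.1, 73.8, 91.3 and 94.5 CPM (log2 fold change 0.52 ± 0.18, adjusted p = 0.037), and did not pass the test in the Imm2 mice alone (adjusted p = 0.41). Of the fibroblast and scar genes, 21 of 31 tested rose and 0 fell (median 1.33). Of the list, 13 rose and 0 fell in the Imm2 mice alone. Dcn, a proteoglycan of fibroblasts, was at 8.09, 9.25, 10.7 and 10.7 against 51.5, 82.2, 87 and 88.2 CPM (log2 fold change 2.99 ± 0.53, adjusted p = 2.5e-04), and Lox, which crosslinks collagen, at 0.598, 0.49, 0.716 and 0.412 against 2.95, 4.08, 10.7 and 8.0 CPM (log2 fold change 3.52 ± 0.63, adjusted p = 2.8e-04). Pdgfrb, the receptor of the stromal cells of the scar, was at 30.9, 32.5, 31.7 and 24.4 against 25.8, 27.2, 34.4 and 31.9 CPM with overlapping groups (log2 fold change -0.01 ± 0.15, adjusted p = 0.98). The meningeal fibroblast list had 5 of 12 tested genes higher and 0 lower (median 0.62), and its summed level was 153 to 196 CPM in the controls and 207 to 263 CPM in the stroked mice. In the Imm2 mice alone this list had 2 higher and 0 lower. The part of carried-over meninges in these values was not tested.

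Chondroitin sulfate proteoglycan and perineuronal net genes rose in 4 of 23 cases tested and fell in 3 (17.4% and 13%, near the shares over all genes, median -0.01). Of the list, 1 rose and 0 fell in the Imm2 mice alone. Acan, the core protein of perineuronal nets, was at 8.17, 8.51, 6.92 and 7.42 against 6.94, 6.17, 5.22 and 9.84 CPM (log2 fold change -0.14 ± 0.20, adjusted p = 0.65), and Vcan, versican, at 25.9, 25, 23.8 and 27 against 23.9, 29.1, 36.3 and 35.6 CPM (log2 fold change 0.29 ± 0.16, adjusted p = 0.17). The groups overlapped for both. Cd44, the hyaluronan receptor, was the member with the largest rise, at 2.56, 1.77, 2.76 and 2.8 against 14.8, 13.9, 19.8 and 22.2 CPM (log2 fold change 2.83 ± 0.44, adjusted p = 8.7e-05). Of the integrin subunits, 10 of 23 tested rose and 1 fell, Itga3 (-0.37), with 6 higher and 0 lower in the Imm2 mice alone. Itgb2, the leukocyte beta chain, was at 5.55, 5.33, 6.39 and 4.86 against 18.8, 17.4, 23.4 and 29.9 CPM (log2 fold change 2.01 ± 0.34, adjusted p = 1.5e-04). Of the TGF-beta genes, 8 of 25 tested rose and 2 fell, with 7 higher and 2 lower in the Imm2 mice alone. The ligand Tgfb1 was at 6.09, 4.9, 6.12 and 5.91 against 12.5, 11.2, 9.39 and 11.3 CPM (log2 fold change 0.95 ± 0.23, adjusted p = 0.0037), and the receptor Tgfbr2 rose by 0.88 (adjusted p = 0.0024).

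Lysosomal genes rose in 36 of 44 cases tested and 0 fell (median 0.68). Of the list, 25 rose and 0 fell in the Imm2 mice alone. Ctsd, the aspartic protease of lysosomes, was at 287, 287, 344 and 288 against 754, 730.1, 1027 and 1339 CPM (log2 fold change 1.67 ± 0.27, adjusted p = 1.0e-04). Ctss, the protease that trims the class II invariant chain, was at 53.9, 44.8, 55.9 and 55.9 against 214, 216, 228 and 240.2 CPM (log2 fold change 2.09 ± 0.30, adjusted p = 4.5e-05). The proton pump that acidifies lysosomes did not follow as a group, with 4 of 21 tested subunits higher and 1 lower, Atp6v0a1 (-0.43), and 2 higher and 0 lower in the Imm2 mice alone. Atp6v0d2, the pump subunit of macrophages and osteoclasts, had 2 counts in the controls and 5.98, 8.22, 13.8 and 17.2 CPM in the stroked mice, a ratio of 786 with an exact counting interval of 217 to 6495. Atp6v1g2, the neuronal subunit, was at 777, 688, 716 and 694 against 701, 643, 298 and 311 CPM, lowest in the TF mice (log2 fold change -0.56 ± 0.21, adjusted p = 0.051), which differed from the Imm2 stroked mice by -1.16 (adjusted p = 0.0068). Of the haem and iron genes, 11 of 22 tested rose and 0 fell, with 6 higher and 0 lower in the Imm2 mice alone. Hmox1, which degrades haem, was at 3.7, 3.24, 4.4 and 5.28 against 10.9, 11.6, 12.9 and 20.1 CPM (log2 fold change 1.74 ± 0.29, adjusted p = 1.3e-04), and Ftl1, the ferritin light chain with many processed copies that can share its reads, at 84.3, 95.9, 106 and 103 against 237, 201, 355 and 426 CPM (log2 fold change 1.65 ± 0.29, adjusted p = 2.2e-04). The red blood cell list had 0 of 6 genes called, with a median of -1.12.

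Cell cycle genes rose in 3 of 37 cases tested and 0 fell (median 0.34), 9 rose with total counts as library sizes (beside 23.7% of all genes) and 1 in the Imm2 mice alone. Mki67, present in dividing cells, was at 4.56, 3.51, 4.11 and 4.1 against 3.66, 4.86, 4.91 and 4.98 CPM (log2 fold change 0.18 ± 0.25, adjusted p = 0.64), and the groups overlapped. Top2a, the mitotic topoisomerase, was at 2.39, 1.77, 1.96 and 2.03 against 1.82, 2.83, 5.17 and 4.98 CPM (log2 fold change 0.85 ± 0.33, adjusted p = 0.054), highest in the TF mice. The members that rose were the replication licensing genes Mcm3 (0.85, adjusted p = 0.0030) and Mcm7 (0.51, adjusted p = 0.0012) and Cdkn2a, an inhibitor of cell cycle entry, whose mean went from 0.00687 to 0.196 CPM (adjusted p = 0.0019).

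Vascular genes moved in both directions. Of the endothelial and barrier list, 7 of 28 tested rose and 6 fell (25% and 21.4%), or 3 fell with total counts as library sizes. Of the list, 4 rose and 8 fell in the Imm2 mice alone, and 3 fell without control mouse 1 or without control mouse 2. In the TF mice 10 of the genes were higher than in the Imm2 stroked mice, beside 2.98% of all genes in that comparison. Cldn5, the tight junction protein of the blood-brain barrier, was at 28.3, 25.3, 22.9 and 18.5 against 12.4, 8.95, 14.6 and 14.4 CPM (log2 fold change -0.92 ± 0.26, adjusted p = 0.011). Flt1, a VEGF receptor of endothelium, was at 86.2, 78.9, 66.7 and 72.2 against 33.3, 27.3, 55.7 and 41.5 CPM (log2 fold change -0.95 ± 0.19, adjusted p = 0.0010). Both fell without overlap, and passed the test also in the Imm2 mice alone (-1.15 and -1.32, adjusted p = 0.025 and 0.0010). Lef1, a transcription factor of Wnt signalling in brain endothelium, fell by 1.29 on the log2 scale (9.45, 13, 8.19 and 7.53 against 4.29, 4.03, 4.3 and 2.96 CPM, adjusted p = 1.1e-04). In the same list the leukocyte adhesion genes Icam1 and Vcam1 were at 1.79, 2.04, 1.96 and 1.68 against 7.88, 5.33, 10.7 and 11.5 CPM (log2 fold change 2.24 ± 0.34, adjusted p = 6.0e-05) and 20.7, 20.5, 22 and 21.9 against 25.2, 30.4, 43.3 and 42.8 CPM (log2 fold change 0.73 ± 0.17, adjusted p = 0.0023), the latter not passing in the Imm2 mice alone (adjusted p = 0.16). Mfsd2a, the lipid transporter of barrier endothelium, was at 11.5, 11, 12.7 and 14.6 against 17.6, 21.7, 27.6 and 26.5 CPM (log2 fold change 0.91 ± 0.12, adjusted p = 2.9e-05) and rose. The pan-endothelial genes Pecam1 and, named after its values were seen, Cdh5 overlapped between the groups, at 20.4, 18.6, 16.2 and 16.3 against 12.7, 15.3, 23.3 and 19.2 CPM (adjusted p = 0.93) and 21, 20.6, 18 and 17.8 against 12.3, 14.4, 18.7 and 16.6 CPM (adjusted p = 0.19).

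Vegfa, the main angiogenic growth factor, was at 82.9, 82.9, 76.3 and 90.7 against 58.6, 51.7, 54.6 and 53.3 CPM (log2 fold change -0.61 ± 0.09, adjusted p = 5.8e-05), and -0.59 ± 0.12, adjusted p = 0.0041 in the Imm2 mice alone. Every stroked mouse lay below every control. Angpt1 and Angpt2, ligands of the Tek receptor, were at 3.99, 3.86, 3.77 and 4.67 against 6.03, 9.06, 9.35 and 9.81 CPM (log2 fold change 1.07 ± 0.26, adjusted p = 0.0045) and 0.94, 1.25, 0.928 and 1.15 against 1.51, 2.83, 2.52 and 3.05 CPM (log2 fold change 1.21 ± 0.35, adjusted p = 0.012), with Angpt2 not passing the test in the Imm2 mice alone (adjusted p = 0.15). Over the VEGF, angiopoietin and Notch list, 5 of 31 tested rose and 6 fell (16.1% and 19.4%, beside 15.2% and 11.6% over all genes), or 2 fell with total counts as library sizes. Of the list, 3 rose and 7 fell in the Imm2 mice alone. Of the mural cell genes, 2 of 17 tested rose and 0 fell, with 1 higher and 0 lower in the Imm2 mice alone. Anpep, a peptidase of pericytes that myeloid cells also carry, was at 5.24, 6.61, 5.65 and 6.49 against 11.4, 13.8, 21.3 and 24.3 CPM (log2 fold change 1.56 ± 0.40, adjusted p = 0.0064), and Rgs5, a pericyte marker, was at 116, 108, 92.5 and 95.9 against 70.6, 93.8, 97 and 76.1 CPM with overlapping groups (log2 fold change -0.29 ± 0.13, adjusted p = 0.097).

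Lists of neuronal genes held more falls than rises, and many members did not pass the test. Of the general neuronal list, 0 rose, 15 of 28 fell and 13 did not pass, with a median of -0.38, or -0.18 in the Imm2 mice alone. Of the list, 0 rose and 4 fell in the Imm2 mice alone, and 9 fell without stroked mouse 3 and 8 without stroked mouse 4. Between the stroked mice, 11 of these genes were lower in the TF than in the Imm2 mice, beside 7.68% of all genes in that comparison. Rbfox3, the neuronal nuclear protein NeuN, was at 569, 459, 504 and 439 against 414, 391, 234 and 246 CPM (log2 fold change -0.62 ± 0.17, adjusted p = 0.0083), with -0.29 ± 0.13, adjusted p = 0.20 in the Imm2 mice alone. Nefl, the light neurofilament, was at 404, 408, 424 and 406 against 323, 332, 329 and 284 CPM (log2 fold change -0.37 ± 0.11, adjusted p = 0.013), and it did not pass the test in the Imm2 mice alone (adjusted p = 0.078). Camk2a, the kinase of excitatory synapses, was at 5428, 4433, 5453 and 4726 against 4556, 6187, 3459 and 2994 CPM, with overlapping groups (log2 fold change -0.22 ± 0.18, adjusted p = 0.36). Of the cortical layer markers, 8 of 30 fell and 1 rose, Crym (0.72), while 21 did not pass, with a median of -0.27, or -0.11 in the Imm2 mice alone. Of the list, 0 rose and 1 fell in the Imm2 mice alone, and 5 fell without control mouse 1 and 4 without stroked mouse 3 or 4. Rorb, of layer 4, was at 70.8, 61.6, 66.6 and 62.2 against 53.4, 48.7, 30.2 and 29.5 CPM (log2 fold change -0.69 ± 0.21, adjusted p = 0.018) but did not pass the test in the Imm2 mice alone (adjusted p = 0.38), and Fezf2, of layer 5, at 50.03, 44.3, 43.2 and 52.6 against 48.2, 41.3, 22.2 and 16.4 CPM (log2 fold change -0.56 ± 0.29, adjusted p = 0.15). Fezf2 was lowest in the TF mice, as was Sst, somatostatin, at 209, 188, 211 and 186 against 170.4, 187, 105 and 92 CPM (log2 fold change -0.52 ± 0.22, adjusted p = 0.077). Of the interneuron markers and neuropeptides, 1 of 28 tested rose and 4 fell (3.57% and 14.3%, median 0.02), with 0 higher and 1 lower in the Imm2 mice alone. Pvalb, parvalbumin, and Vip did not pass the test, at 47.5, 51.9, 54.9 and 53 against 46, 40.1, 31.1 and 21.9 CPM (adjusted p = 0.18) and 22.6, 26.5, 29.2 and 27.1 against 25.6, 29.1, 28.4 and 25.8 CPM (adjusted p = 0.90).

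Ion channels and neurotransmitter receptors included falls that passed the test also in the Imm2 mice alone. Of the voltage-gated channels, 28 of 49 tested fell and 1 rose, Kcna5 (1.37), with a median of -0.40. Of the list, 0 rose and 10 fell in the Imm2 mice alone. With total counts as library sizes 17 fell. Scn1a, the sodium channel of fast-spiking cells, was at 280.4, 287, 237 and 224 against 159, 162, 144 and 134 CPM (log2 fold change -0.78 ± 0.17, adjusted p = 0.0015). Kcnc1, the potassium channel that allows fast spiking, was at 287, 303, 289 and 284 against 227, 182, 169 and 168 CPM (log2 fold change -0.64 ± 0.12, adjusted p = 3.4e-04). All stroked mice lay below all controls for both genes, and the Imm2 mice alone gave -0.67 and -0.51 (adjusted p = 0.038 and 0.017). Of the neurotransmitter receptors, 0 rose and 18 of 40 fell (median -0.27), 11 with total counts as library sizes. Of the list, 0 rose and 4 fell in the Imm2 mice alone, and 10 fell without control mouse 1, 9 without stroked mouse 3 and 8 without stroked mouse 4. Grin2b, an NMDA receptor subunit, was at 1226, 1112, 1203 and 1131 against 849, 874, 592 and 475 CPM (log2 fold change -0.74 ± 0.19, adjusted p = 0.0059), with -0.43 ± 0.20, adjusted p = 0.20 in the Imm2 mice alone. Gria1, an AMPA receptor subunit, and Gabrd, a subunit of extrasynaptic GABA-A receptors, overlapped between the groups (adjusted p = 0.66 and 0.90).

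Immediate early genes, which neurons transcribe within minutes of activity, held the largest number of genes that fell by more than 2-fold among the lists. Of 32 tested, 21 fell, 11 of them by more than 2-fold, and 1 rose, Maff (1.75, adjusted p = 8.8e-04), with a median of -0.76. Of the list, 1 rose and 6 fell in the Imm2 mice alone. Egr1, a zinc finger factor of active neurons, was at 599.7, 629.7, 1004 and 937 against 355, 345, 189 and 252 CPM (log2 fold change -1.47 ± 0.21, adjusted p = 4.5e-05). Egr3, named after its values were seen, was at 312, 303, 438 and 464 against 177, 208, 157 and 139.7 CPM (log2 fold change -1.15 ± 0.18, adjusted p = 7.6e-05). Npas4, which is induced by calcium entry, was at 39.1, 71.6, 82.2 and 36.5 against 15.5, 19.6, 9.48 and 24.9 CPM (log2 fold change -1.72 ± 0.36, adjusted p = 0.0014). The groups did not overlap for these 3, and in the Imm2 mice alone the values were -1.18, -0.97 and -1.71 (adjusted p = 0.0072, 0.0092 and 0.027). Other members varied among the controls. Fos was at 20.8, 56.1, 103 and 39.4 against 19.3, 16.9, 12.4 and 32.1 CPM (log2 fold change -1.44 ± 0.41, adjusted p = 0.011), and Arc, the synaptic plasticity protein, at 189.7, 476, 954 and 481 against 202, 244, 84.8 and 178 CPM (log2 fold change -1.57 ± 0.40, adjusted p = 0.0063). Control mouse 3 was the highest and control mouse 1 lay within the stroked range for both. Neither passed the test in the Imm2 mice alone (-1.6 and -1.23, adjusted p = 0.096 and 0.17). Without stroked mouse 3, 13 members of the list fell. Without control mouse 3, 11 members of the list fell and Fos, Junb and Egr2 did not pass the test. Bdnf, the activity-dependent neurotrophin, was at 31.1, 25.1, 38 and 43.5 against 15.6, 21.3, 23.8 and 20.7 CPM (log2 fold change -0.76 ± 0.18, adjusted p = 0.0036) and fell, with -0.89 ± 0.23, adjusted p = 0.018 in the Imm2 mice alone.

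**Figure D4:**
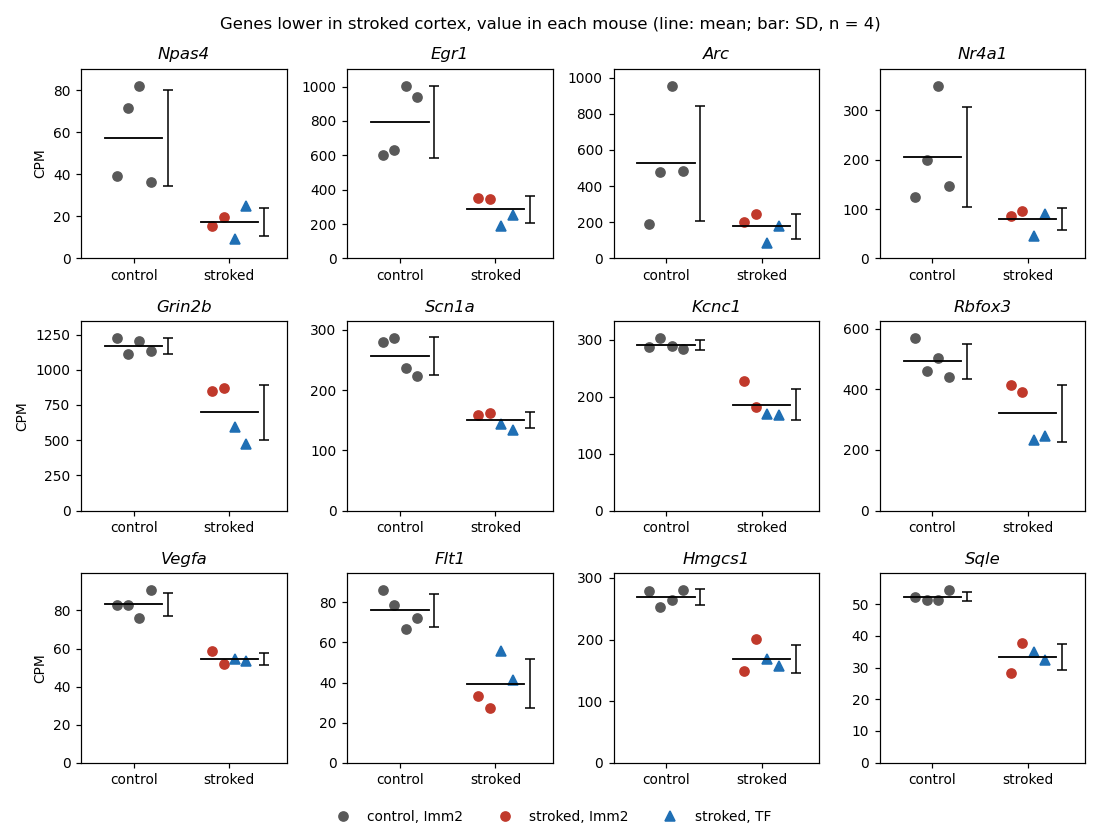
CPM (vertical axis, from 0) of 12 genes that fell in stroked cortex, 1 panel for each gene, with each mouse as a point (circles for Imm2 mice, triangles for TF mice), the mean of each group as a line and 1 SD to either side as a bar (n = 4). Stroked mice lie below all controls in every panel except that of Arc, where control mouse 1 lies within the stroked range. For Egr1, Arc, Grin2b, Scn1a, Kcnc1 and Rbfox3 both TF mice lie below both Imm2 stroked mice.

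Genes of cholesterol synthesis fell in 18 of 26 cases tested and 1 rose (median -0.43). Of the list, 1 rose and 13 fell in the Imm2 mice alone. Hmgcs1, a synthase early in the pathway, was at 279, 253, 263 and 280.4 against 149, 200.2, 169 and 157 CPM (log2 fold change -0.68 ± 0.11, adjusted p = 1.1e-04). Sqle, the squalene epoxidase, was at 52.1, 51.4, 51.4 and 54.4 against 28.4, 37.7, 35 and 32.2 CPM (log2 fold change -0.65 ± 0.10, adjusted p = 7.2e-05). The groups did not overlap for either gene, and the TF and Imm2 stroked mice lay close together, with -0.62 and -0.66 in the Imm2 mice alone (adjusted p = 0.0015 and 8.1e-04). The member that rose was Srebf1, a transcription factor that directs mainly fatty acid synthesis (0.81, adjusted p = 6.8e-05). Myelin genes moved little: 4 of 24 tested rose (16.7%), or 8 with total counts as library sizes (beside 23.7% of all genes) and 1 in the Imm2 mice alone, and 0 fell. Mbp, myelin basic protein, was at 2861, 1648, 2771 and 2883 against 3723, 4029.6, 2968 and 2344 CPM (log2 fold change 0.36 ± 0.20, adjusted p = 0.18), with overlapping groups. Of the precursor genes, 3 of 20 tested rose and 3 fell, with 2 higher and 0 lower in the Imm2 mice alone, and Pdgfra, the precursor receptor, was at 55.2, 53.2, 57.5 and 53.9 against 50.7, 71.8, 72.6 and 58.7 CPM (log2 fold change 0.21 ± 0.11, adjusted p = 0.18).

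Cytosolic ribosomal protein genes rose in 64 of 83 cases tested and 0 fell (median 0.52). Of the list, 22 rose and 0 fell in the Imm2 mice alone. Rpl37a was at 29.2, 32.5, 40.6 and 37.8 against 52.5, 45.8, 82.1 and 73.6 CPM (log2 fold change 0.86 ± 0.22, adjusted p = 0.0056), with 0.49 ± 0.22, adjusted p = 0.19 in the Imm2 mice alone, and reads of this family can be shared with processed copies. Of the mitochondrial ribosomal protein genes 1 fell. Rises were called in 4 of 77 cases (5.19%), or 17 with total counts as library sizes (beside 23.7% of all genes), and for nuclear genes of the respiratory chain in 8 of 77, or 23. Leaving out each mouse in turn gave 0 to 7 and 0 to 10, with the lowest counts without stroked mouse 4. Neither list had a gene that rose in the Imm2 mice alone. None of the 13 transcripts encoded in the mitochondrion passed the test in this comparison, but 7 were lower in the TF than in the Imm2 stroked mice, beside 7.68% of all genes. mt-Nd1, a subunit of complex I, was at 11716, 9268, 10774 and 9764 against 8389.9, 13225, 5147 and 4396 CPM (log2 fold change -0.41 ± 0.23, adjusted p = 0.19).

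Among the genes named above as exceptions to their list or for a small list count, Mef2c, Nceh1, Pax5, Nlrc4, Socs1, Jak1, Herc6, Mmp15, Mmp17, Itga3, Atp6v0a1, Crym, Kcna5, Mcm3 and Cdkn2a did not pass the test in the Imm2 mice alone, with adjusted p from 0.052 to 0.48.

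The TF and the Imm2 stroked mice differed from each other at 1840 genes of 17263 tested, 515 higher (2.98%) and 1325 lower (7.68%) in the TF mice. S100a9 was higher in the TF mice by 2.63 (adjusted p = 0.034) and Slc17a7 was lower, with a log2 difference of -0.67 (adjusted p = 0.031). Of the complement list 2 of 28 genes were higher in the TF mice, and of the border and infiltrating macrophage list 2 of 21. Genes with large stroke responses that did not pass this test had differences of 1.37 for Gpnmb (adjusted p = 0.36), 1.53 for C3 (adjusted p = 0.34) and 0.39 for Gfap (adjusted p = 0.60). The TF samples had lower total counts, and with 2 mice on each side the title prefix, the depth and the Y-linked expression cannot be told apart.

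The response of wild-type cortex was set beside that of 2 strains that lack lymphocyte lineages, by the difference of the stroke effects in the same fit. Rag2-/- mice (3 stroked and 3 non-stroked) have no mature lymphocytes of the T or B lineage. In NSG mice (3 stroked and 4 non-stroked) functional natural killer cells are missing as well, and the titles of all these samples begin with Imm2. NSG mice carry a NOD background in place of the C57BL/6 background of the wild-type mice, so that strain background and missing lymphocytes cannot be told apart in that comparison. Between the responses of wild-type and Rag2-/- mice edgeR called 0 genes (0% of 17031), with 713 at an unadjusted p below 0.05 and a lowest adjusted p of 0.95, and DESeq2 also called 0. A test that misses its threshold does not show that the responses were alike. Between wild-type and NSG mice 5 genes were called (0.0294%). The response of Egr1 in wild-type mice minus that in NSG mice was -1.91 ± 0.31 on the log2 scale (adjusted p = 0.027). In NSG mice Egr1 was at 234, 398, 308 and 275 CPM without stroke and 316, 467 and 450.1 CPM with stroke, so that the non-stroked NSG mice already lay near the stroked wild-type mice. In Rag2-/- mice the values were 514, 877 and 630.3 CPM without stroke and 318, 291 and 350.1 CPM with stroke. The response of Nr4a1, another activity-dependent factor, differed by -2.30 ± 0.42 (adjusted p = 0.035), and that of Vegfa by -0.75 ± 0.13 (adjusted p = 0.034). Gatm, which makes the creatine precursor, and Fam214a were named after their values were seen and differed by -0.78 ± 0.14 (adjusted p = 0.035) and 0.88 ± 0.15 (adjusted p = 0.027). With the Imm2 mice only, a setting chosen after seeing the data, 0 genes were called and these differences were -1.61 for Egr1, -2.09 for Nr4a1, -0.72 for Vegfa, -0.75 for Gatm and 0.74 for Fam214a. DESeq2 called 136 genes in this comparison.

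**Figure D5:**
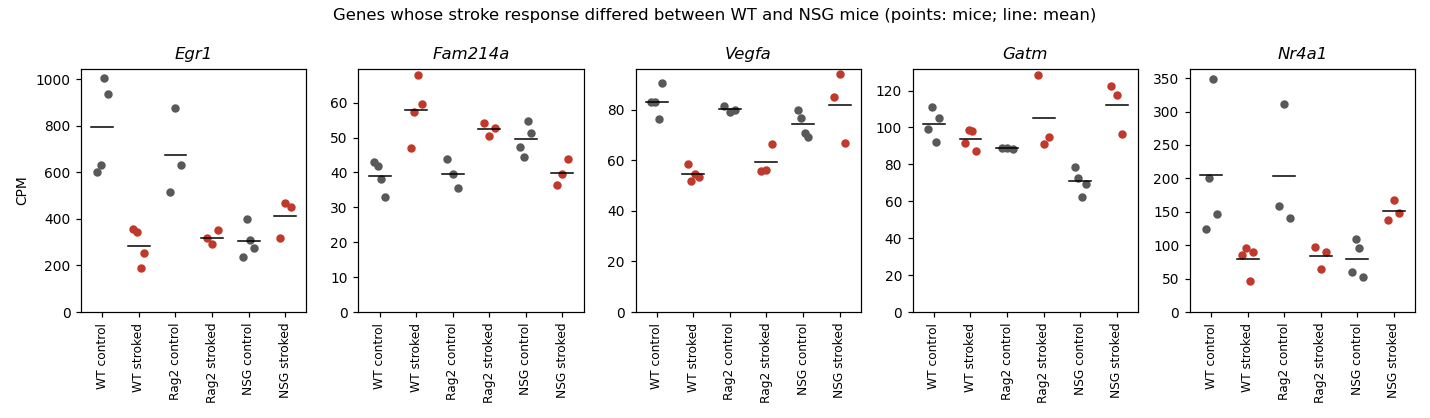
CPM (vertical axis, from 0) of the 5 genes whose stroke response differed between wild-type and NSG mice, 1 panel for each gene, with a point for each non-stroked (grey) and stroked (red) mouse of the wild-type, Rag2-/- and NSG groups and the group mean as a line. Egr1 was lower in stroked than in non-stroked wild-type mice, and all 4 non-stroked NSG mice were below all non-stroked wild-type mice.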

How the data were processed

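RNA of brain tissue from 8 wild-type mice was measured by sequencing of polyA-selected, stranded libraries. The authors deposited 1 table per sample, and its matched counts are whole read counts per gene, not normalized. The aligner, genome build and strand setting are not given in the sources used here. Gene identifiers were matched to a GENCODE annotation, for 25712 of 25746 listed genes. Counts of all 29 samples in 8 groups entered 1 fit with edgeR 4.0.16 in R 4.3.3 (TMM factors, filterByExpr by group, quasi-likelihood test, Benjamini-Hochberg adjustment over 17031 genes), and contrasts gave log2 fold changes. The standard errors after ± were derived from each fold change and its test statistic. Calls and fold changes, but not standard errors, were checked on simulated counts. These had the same spread for all genes and no difference by title prefix. Values are TMM-scaled CPM. Alternatives were a fit of all samples with Imm2 titles (called the Imm2 mice alone), the 8 wild-type samples only, and leaving out each mouse. Further alternatives were other scalings, DESeq2 1.42.0, other filters, and the title prefix or Ddx3y as covariates. Promoters were those of RefSeq. The samples were treated as separate mice, which the labels do not state. If this holds, the p-values measure the spread between mice of these groups. The members and lists were chosen with earlier results of these data known. Genes named were key members of each list and the 20 largest changes in each direction among genes called past 2-fold, without overlap between the groups and with a mean of at least 1 CPM in the higher group, and the exceptions to a list were named after their values were seen. Some members of the lists are not reported here.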

Additional observations from a re-analysis of the deposited data

Results flagged for a closer look

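A single mouse stood far from the others of its group of 4 in 30 of 434 gene and group pairs examined. Chance alone marks about 1 in 20 where values are continuous and normally distributed. Where the other mice of a group have 0 counts, any mouse with a count is marked, so the number of marks cannot be set against that rate. Control mouse 3 was the highest control for Cd5l at 0.0265 CPM, Apoc2 at 0.0265 CPM, Tgm1 at 0.0795 CPM, Gm44805 at 0.0265 CPM, Cd79b at 0.265 CPM and Ctsd at 344 CPM. Control mouse 4 was the highest for Cd8a at 0.0550 CPM, Steap4 at 0.577 CPM, Msr1 at 0.0825 CPM, Cxcl13 at 0.0550 CPM, Cdkn2a at 0.0275 CPM and Ccl8 at 0.0275 CPM, and the lowest for Srebf1 at 41.9 CPM. For Cd5l, Apoc2, Gm44805, Cdkn2a and Ccl8 the value is a single count. Control mouse 2 was the highest for Irf7 at 2.09 CPM, Postn at 3.16 CPM, Slc17a6 at 54.2 CPM, Pax5 at 3.59 CPM, Itga3 at 27.7 CPM, Glra1 at 6.39 CPM and Th at 4.16 CPM, and the lowest for Mbp at 1648 CPM. Control mouse 1 was the lowest for Slamf7 at 0 CPM. Among the stroked mice, mouse 2 was the highest for Igkc at 4.39 CPM and Socs1 at 0.445 CPM, mouse 3 for Maff at 2.69 CPM and mouse 4 for Cd79b at 0.367 CPM, and mouse 1 was the lowest for Aldh1l1 at 62.7 CPM, Mmp12 at 7.37 CPM, Dcn at 51.5 CPM and Mki67 at 3.66 CPM.

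The stroke response differed between wild-type and NSG mice, by the test of the difference, at 5 genes on the log2 scale: -1.91 for Egr1, 0.88 for Fam214a, -0.75 for Vegfa, -0.78 for Gatm and -2.30 for Nr4a1. These calls were absent with the Imm2 mice only.

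The TF and Imm2 stroked mice differed at 1840 genes. Among the genes examined singly, TF minus Imm2 on the log2 scale was 1.92 for Ccr2, 2.63 for S100a9, 0.61 for Vcam1 and 0.70 for Gad1. It was -0.76 for Rbfox3, -0.67 for Slc17a7, -0.75 for Camk2a, -1.24 for Fezf2, -0.88 for Sst, -0.46 for Atp6v0a1, -1.16 for Atp6v1g2, -0.65 for mt-Co1 and -1.20 for mt-Nd1.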

How the results depend on the processing

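No paired analysis was possible because the labels give the stroked and non-stroked wild-type mice no shared replicate numbers, and the numbers 1 to 4 used here only name the mice. The counts of calls depended on the scaling and on which mice entered. Higher genes numbered 2597, against 4041 with total counts as library sizes, 1264 with the title prefix (Imm2 or TF) as a covariate, 1142 in the Imm2 mice alone, 1573 with Ddx3y as a covariate and 1700 to 2857 when each mouse was left out (1700 without stroked mouse 4). Lower genes numbered 1982, against 844, 832, 386 and 1092 under the same settings and 990 to 2289 when each mouse was left out, with 1215 without control mouse 1, 1119 without stroked mouse 3 and 990 without stroked mouse 4. Genes higher by more than 2-fold numbered 1152, against 669 with the prefix as a covariate, 680 in the Imm2 mice alone and 906 to 1265 with a mouse left out. Genes lower by more than 2-fold numbered 92, against 39 with a mean of at least 1 CPM required, 43 with the prefix as a covariate, 27 in the Imm2 mice alone, 56 with Ddx3y as a covariate and 40 to 140 with a mouse left out (138 without stroked mouse 1, 140 without stroked mouse 2, 57 without stroked mouse 3 and 40 without stroked mouse 4). DESeq2 gave 2731 higher and 2322 lower genes, and its size factors in edgeR gave 2561 and 2033. The 5 genes that differed from the NSG response became 136 with DESeq2 and 0 with the Imm2 mice only. Of 219 genes examined singly, 178 were called, 149 of these in every fit that left out 1 mouse and 128 in the Imm2 mice alone, and none changed direction past the threshold in any alternative. The cause of these differences was not tested. Genes below about 1 CPM rest on few counts, and this depth limits the lymphocyte genes among them.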

Other observations

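Axon growth and neuronal injury genes mostly did not rise at this time. Of 30 tested, 2 rose and 12 fell (median -0.22), or 5 fell with total counts as library sizes. Of the list, 1 rose and 2 fell in the Imm2 mice alone, and 6 fell without control mouse 1, 3 without stroked mouse 3 and 5 without stroked mouse 4. Gap43, a growth cone protein, was at 133, 139, 123 and 124 against 142, 133, 153 and 152 CPM with overlapping groups (log2 fold change 0.16 ± 0.17, adjusted p = 0.51). Atf3, a transcription factor of injured cells, was at 0.37, 0.245, 0.716 and 0.907 against 2.35, 2.14, 5.65 and 7.79 CPM (log2 fold change 2.98 ± 0.59, adjusted p = 7.5e-04) and rose. Sema3a, a repulsive guidance cue, was at 38.3, 32.4, 32.2 and 33.5 against 24.6, 25.4, 24.5 and 27.9 CPM (log2 fold change -0.41 ± 0.12, adjusted p = 0.012) and fell, with -0.44 ± 0.15, adjusted p = 0.076 in the Imm2 mice alone. Of the growth factors, 9 of 29 tested rose and 4 fell, with 5 higher and 3 lower in the Imm2 mice alone. Igf1, insulin-like growth factor 1, was at 9.25, 10.6, 9.7 and 10.9 against 19.6, 28.5, 24.2 and 29.6 CPM (log2 fold change 1.33 ± 0.34, adjusted p = 0.0061), and Grn, progranulin, at 49.7, 50.3, 48.9 and 44.6 against 93.2, 80.3, 116 and 148 CPM (log2 fold change 1.18 ± 0.21, adjusted p = 3.2e-04). Both rose without overlap between the groups.

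Genes of structures that neighbour the cortex varied between mice of 1 group. Ttr, the transthyretin of choroid plexus, was at 1.77, 0.871, 729.5 and 391 against 3.05, 4.31, 134 and 223 CPM (log2 fold change -1.63 ± 1.78, adjusted p = 0.52). The values were high in control mice 3 and 4 and in both TF mice and under 5 CPM in the others. Drd2, a dopamine receptor of striatal neurons, was highest in the TF mice, at 27.1, 18.8, 8.22 and 22.3 against 33.8, 17.3, 50.8 and 52 CPM (log2 fold change 1.01 ± 0.77, adjusted p = 0.34). The part of neighbouring tissue in the results was not tested. In the thalamus and midbrain list 5 of 14 genes fell and 1 rose (0 higher and 1 lower in the Imm2 mice alone), and Slc17a6, the glutamate transporter of subcortical neurons, was at 31, 54.2, 29.8 and 27.9 against 17.3, 20.03, 22.7 and 14.9 CPM (log2 fold change -0.93 ± 0.22, adjusted p = 0.0036), highest in control mouse 2. The mean log2 level of the list was also highest in that mouse, and relative to the control mean the other 3 controls, from -0.66 to -0.45, lay below every stroked mouse, from -0.23 to 0.27. Without control mouse 2 the list had 2 genes lower and 2 higher.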
